A study of Homo sapiens with 11 samples.

Results

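The genes described here are 9 components of the tight junction: CLDN1, CLDN3, CLDN4, CLDN7, CLDN12, OCLN, TJP1, F11R and MARVELD2. The 9 genes were chosen by symbol from the 58735 genes counted in each library, with earlier results of these data known. They were measured by poly(A) RNA sequencing of 2 human pancreatic cancer cell lines, AsPC-1, a line grown from ascites, and PANC-1, a line grown from a primary ductal tumour. The groups were AsPC-1 with siRNA against MYEOV (n = 3 libraries), AsPC-1 control (n = 2), PANC-1 with siRNA against MYEOV (n = 3) and PANC-1 control (n = 3), and the study asked what changes when MYEOV, a gene amplified or overexpressed in several tumours, is lowered. RNA of the siRNA libraries was taken 48 hours after transfection, and no such time is given for the controls. The titles call the controls wild type and the labels also call them untreated, whereas the transfection protocol lists a negative-control siRNA, so what the control cells received is not settled. The protocol lists a pair of siRNAs against MYEOV, and the sources used here do not give which library received which. Nothing states that the libraries of a group came from separate cultures, and the p-values therefore reflect only how these libraries vary, which may be technical variation. AsPC-1 cells grew in RPMI 1640 and PANC-1 cells in DMEM, so line and medium cannot be told apart.

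Tight junctions seal the space between neighbouring epithelial cells near their apical side. Claudins are small membrane proteins that polymerise into the sealing strands, and the claudins that a cell makes set which ions and molecules pass. Occludin (OCLN) and tricellulin (MARVELD2) belong to the MARVEL family of membrane proteins and join those strands, tricellulin mainly where the corners of cells meet. Junctional adhesion molecule A (F11R) is an immunoglobulin-like adhesion protein, and zonula occludens 1 (TJP1) is the cytoplasmic scaffold that ties claudins, occludin and junctional adhesion molecules to actin. Claudin-4 is abundant in pancreatic cancer, and claudin-3 and claudin-4 are receptors of the enterotoxin of Clostridium perfringens.

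In the GENCODE 29 annotation of GRCh38 all 9 are protein-coding genes. CLDN3 (chr7:73768997-73770270, minus strand, a single exon) and CLDN4 (chr7:73799542-73832693, plus strand) lie 29272 bp apart on opposite strands. MARVELD2 (chr5:69415065-69444330) and OCLN (chr5:69492292-69558104) lie 47962 bp apart, both on the plus strand. The others stand apart from the rest: CLDN1 (chr3:190305701-190322475, minus strand), CLDN7 (chr17:7259903-7263983, minus strand), CLDN12 (chr7:90383721-90513402, plus strand), TJP1 (chr15:29699367-29968865, minus strand) and F11R (chr1:160995211-161021348, minus strand). Some reads could have been assigned uncertainly. CLDN12 shares 347 bp of exon with GTPBP10, 201 bp with CDK14, 371 bp with AC006153.1 and 276 bp with AC002456.2. F11R shares 1853 of its 5066 bp with a readthrough transcript that had at most 6 counts in a library. CLDN7 shares 269 bp with AC003688.1 on its own strand and 38 bp with ELP5 on the opposite strand. AC003688.1, AC006153.1 and AC002456.2 had no count in any library. OCLN has a pseudogene copy, OCLNP1, with at most 37 counts. A low count of an overlapping gene does not show how many reads of shared exon were left uncounted.

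Promoter windows of 300 bases (250 before to 50 after a RefSeq transcript start, GRCh38.p14) were found for 8 of the 9 genes, 13 windows in all. They were searched on both strands for CACCTG (the letters of an E-box to which SNAI and ZEB repressors bind), TGANTCA (AP-1), AACCNGTT (grainyhead factors) and GGGCGG (a GC box). Windows of CLDN4 and CLDN3, which rose with siRNA in AsPC-1, and of CLDN7 and OCLN, which fell there, are shown 5′ to 3′ on the strand of the gene. Capitals mark matches of CACCTG, written CAGGTG when on the other strand, and of TGANTCA.
CLDN4 (chr7:73830746-73831045, plus): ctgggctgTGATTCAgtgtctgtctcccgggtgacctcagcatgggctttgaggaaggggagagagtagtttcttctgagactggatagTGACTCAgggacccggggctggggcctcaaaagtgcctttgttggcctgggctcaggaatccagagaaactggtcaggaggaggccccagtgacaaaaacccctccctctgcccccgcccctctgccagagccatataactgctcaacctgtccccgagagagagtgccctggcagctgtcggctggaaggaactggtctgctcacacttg
CLDN3 (chr7:73770221-73770520, minus): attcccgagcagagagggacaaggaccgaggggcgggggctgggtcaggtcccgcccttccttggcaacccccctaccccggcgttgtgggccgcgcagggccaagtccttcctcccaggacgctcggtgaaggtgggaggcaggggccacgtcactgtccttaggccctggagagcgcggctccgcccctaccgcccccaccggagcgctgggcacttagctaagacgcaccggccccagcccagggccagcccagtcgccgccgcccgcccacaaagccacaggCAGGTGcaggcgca
CLDN7, downstream window (chr17:7262429-7262728, minus): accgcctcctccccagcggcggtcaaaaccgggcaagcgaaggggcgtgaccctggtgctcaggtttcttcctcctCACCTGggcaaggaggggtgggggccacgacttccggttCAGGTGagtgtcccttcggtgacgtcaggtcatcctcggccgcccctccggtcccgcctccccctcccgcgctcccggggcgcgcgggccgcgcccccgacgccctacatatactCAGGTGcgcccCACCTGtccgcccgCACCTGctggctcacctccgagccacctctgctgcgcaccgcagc
CLDN7, upstream window (chr17:7263164-7263463, minus): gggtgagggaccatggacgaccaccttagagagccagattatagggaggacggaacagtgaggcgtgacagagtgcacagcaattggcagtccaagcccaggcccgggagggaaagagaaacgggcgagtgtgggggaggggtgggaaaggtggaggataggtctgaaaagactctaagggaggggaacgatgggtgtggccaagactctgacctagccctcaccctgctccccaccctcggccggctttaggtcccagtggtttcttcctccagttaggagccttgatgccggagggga
OCLN (chr5:69492540-69492839, plus): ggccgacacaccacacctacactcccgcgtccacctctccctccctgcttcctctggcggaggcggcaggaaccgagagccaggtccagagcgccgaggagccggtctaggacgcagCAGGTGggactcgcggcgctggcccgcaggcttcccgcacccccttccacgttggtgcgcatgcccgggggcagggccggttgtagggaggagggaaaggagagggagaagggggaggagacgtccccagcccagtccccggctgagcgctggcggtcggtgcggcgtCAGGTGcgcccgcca
Both RefSeq windows of CLDN7 are shown. The downstream one, with 1 annotated transcript start within 100 bases, held 5 matches of CACCTG, and the upstream one, with 2 such starts, held none. The OCLN window shown held 2, its other window 1 and the CLDN3 window 1, against 20.6% of 35116 promoter windows that held at least 1. The CLDN4 window, with 0 annotated transcript starts within 100 bases, held no CACCTG. It was the only member window with TGANTCA, which it held in 2 places, and 7.71% of all windows held that motif. AACCNGTT was found in no member window and in 1.73% of all windows. GGGCGG was found in at least 1 window of CLDN1, CLDN3, CLDN4, CLDN7, OCLN, TJP1 and MARVELD2 and in 45.0% of all windows. Since CLDN7, OCLN and TJP1 have more than 1 window, the list by gene and this share of single windows are unlike measures. Of the 4 TJP1 windows, 1 held CACCTG. CLDN1, CLDN12 and MARVELD2 windows held neither CACCTG nor TGANTCA. A match describes these letters and not binding.

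A 7-base word, CTCATGT, that stood out in the 3′ UTRs of falling genes in earlier results of these data was also looked for, as was its inner word TCATGT. Among the 9 genes the longer word was found in TJP1 alone, among others in the context tgccttaccCTCATGTtcttaattct (capitals mark the word, GENCODE 29), against 14.1% of the genes tested in AsPC-1 and 14.2% of those tested in PANC-1 that have an annotated 3′ UTR. TCATGT without the first base was found 4 times in CLDN1, 2 times in OCLN and 1 time in MARVELD2. With TJP1, 4 of the 9 genes thus held the inner word, beside 41.4% and 41.6% of the same genes tested. No 3′ UTR of CLDN3, CLDN4, CLDN7, CLDN12 or F11R held either word.

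Libraries held 12113093 to 15066456 counts on 22050 to 24025 detected genes. Levels are given as CPM (counts relative to the library total, scaled by TMM factors over all libraries). MYEOV itself averaged 47.2 ± 4.0 CPM in AsPC-1 siRNA libraries and 130.2 ± 0.91 CPM in AsPC-1 controls, and 37.7 ± 2.0 CPM in PANC-1 siRNA libraries and 69.2 ± 5.4 CPM in PANC-1 controls (SD, n = 3, 2, 3 and 3). PANC-1 control replicate 2 stood apart: its chi-square per degree of freedom over genes was 5.97 and 4.87 against the other PANC-1 controls, while every other pair within a group lay between 1.67 and 3.69. Summed CPM of 6 epithelial markers ran from 18433 to 18945 in AsPC-1 siRNA libraries and from 18055 to 18249 in AsPC-1 controls. In PANC-1 the same sum was lower, from 1929 to 1961 in siRNA libraries and from 2262 to 2530 in controls. Of these markers, EPCAM was at 6.90 to 7.92 CPM in PANC-1 siRNA libraries and 4.82 to 6.50 CPM in PANC-1 controls. Mesenchymal markers, summed over 5 genes, lay between 851 and 997 CPM in AsPC-1 libraries, and in PANC-1 libraries between 2262 and 2390.0 CPM. Leukocyte markers, also 5 genes, summed to between 29.97 and 32.7 CPM in AsPC-1 libraries, with 2 of the 5 at no count, and in PANC-1 libraries to between 0.551 and 1.497 CPM. Endothelial markers summed to under 1 CPM and acinar and islet markers to 0.0631 CPM or less in every library.

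With MYEOV siRNA in AsPC-1, the claudin transcripts moved in opposite directions. CLDN4, CLDN3, CLDN1 and F11R rose, by 1.19-fold to 1.33-fold. CLDN7, OCLN and CLDN12 fell, to between 74.4% and 90.1% of control, and TJP1 and MARVELD2 were not called. These 7 calls among 9 genes (4 higher, 3 lower; quasi-likelihood test of edgeR, p under 0.05 after Benjamini-Hochberg adjustment) stand beside 32.9% of the 14304 genes tested, 16.6% higher and 16.3% lower. The median absolute log2 fold change was 0.27 over the 9 genes and 0.17 over all genes tested. Because the 9 genes were chosen with earlier results of these data known, such figures, here and below, cannot measure an excess over all genes. Marker genes moved with siRNA in the same AsPC-1 libraries. Of the 6 epithelial markers, edgeR called 4 higher and 1 lower, and DESeq2 3 and 1. The mesenchymal sum ran from 935 to 997 CPM in siRNA libraries and from 851 to 884 CPM in controls. The sum of 6 fibroblast markers, of which LUM alone was above 1 CPM, ran from 106 to 109 CPM in siRNA libraries and from 296 to 309.9 CPM in controls. Their part in the changes of the junction genes was not tested. In bulk RNA, a change in the number of cells with a transcript and a change in the amount per cell cannot be told apart.

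Among the claudins that rose, CLDN4 had 293, 282 and 278 CPM in AsPC-1 siRNA libraries, against 209 and 216 CPM in AsPC-1 controls. All siRNA libraries lay well above both controls, at a log2 fold change of 0.41 (SE 0.04; edgeR's adjusted p = 5.15e-09). CLDN3, its neighbour on chromosome 7, had 39.7, 38.3 and 38.0 CPM with siRNA, against 29.9 and 29.6 CPM in controls, and again the groups did not overlap (log2 fold change 0.36, SE 0.07; edgeR's adjusted p = 2.54e-04). CLDN1, a barrier-forming claudin of skin and many epithelia, had 44.5, 41.1 and 44.1 CPM with siRNA, against 38.0 and 34.0 CPM in controls (log2 fold change 0.25, SE 0.07; edgeR's adjusted p = 0.00812). The call for CLDN1 was lost without AsPC-1 control replicate 2, the lower control (edgeR's adjusted p = 0.150).

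CLDN7, a claudin that binds the adhesion molecule EPCAM, had the largest absolute log2 fold change of the 9 genes in this line and went down. It had 48.6, 52.3 and 51.2 CPM in AsPC-1 siRNA libraries, against 68.1 and 66.8 CPM in AsPC-1 controls (log2 fold change -0.43, SE 0.06; edgeR's adjusted p = 1.63e-06). EPCAM moved the other way, with 1209, 1278 and 1319.8 CPM with siRNA, against 1014 and 937 CPM in controls (log2 fold change 0.36, SE 0.04; edgeR's adjusted p = 1.82e-08). CLDN12, a claudin that lacks the usual binding motif for PDZ scaffolds such as TJP1, had 124, 119.6 and 121 CPM with siRNA, against 132 and 134 CPM in controls. Its fall was the smallest called change (log2 fold change -0.15, SE 0.04; edgeR's adjusted p = 0.00755), and the call was lost without AsPC-1 control replicate 2 (adjusted p = 0.0938) and in 1 edgeR fit over all groups (adjusted p = 0.296).

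Of the MARVEL proteins, OCLN had 37.0, 35.9 and 33.4 CPM in AsPC-1 siRNA libraries, against 43.4 and 41.2 CPM in AsPC-1 controls. The groups did not overlap, and OCLN fell (log2 fold change -0.27, SE 0.07; edgeR's adjusted p = 0.00297), though not past the threshold without AsPC-1 control replicate 1 (edgeR's adjusted p = 0.0634). MARVELD2 had 44.9, 44.8 and 45.0 CPM with siRNA, against 47.3 and 48.5 CPM in controls, a gap without overlap that did not pass the test (log2 fold change -0.11, SE 0.06; edgeR's adjusted p = 0.191). F11R had 95.5, 94.4 and 93.8 CPM with siRNA, against 76.9 and 76.2 CPM in controls, and rose (log2 fold change 0.29, SE 0.05; edgeR's adjusted p = 3.42e-05). The scaffold TJP1 had 111, 121 and 116 CPM with siRNA, against 117 and 123 CPM in controls. Its groups overlapped, at a log2 fold change of -0.06 (SE 0.05; edgeR's adjusted p = 0.330). TJP1 was the only member with overlapping groups, so 8 of 9 did not overlap, beside 54.2% of all genes tested in this comparison.

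**Figure D1:**
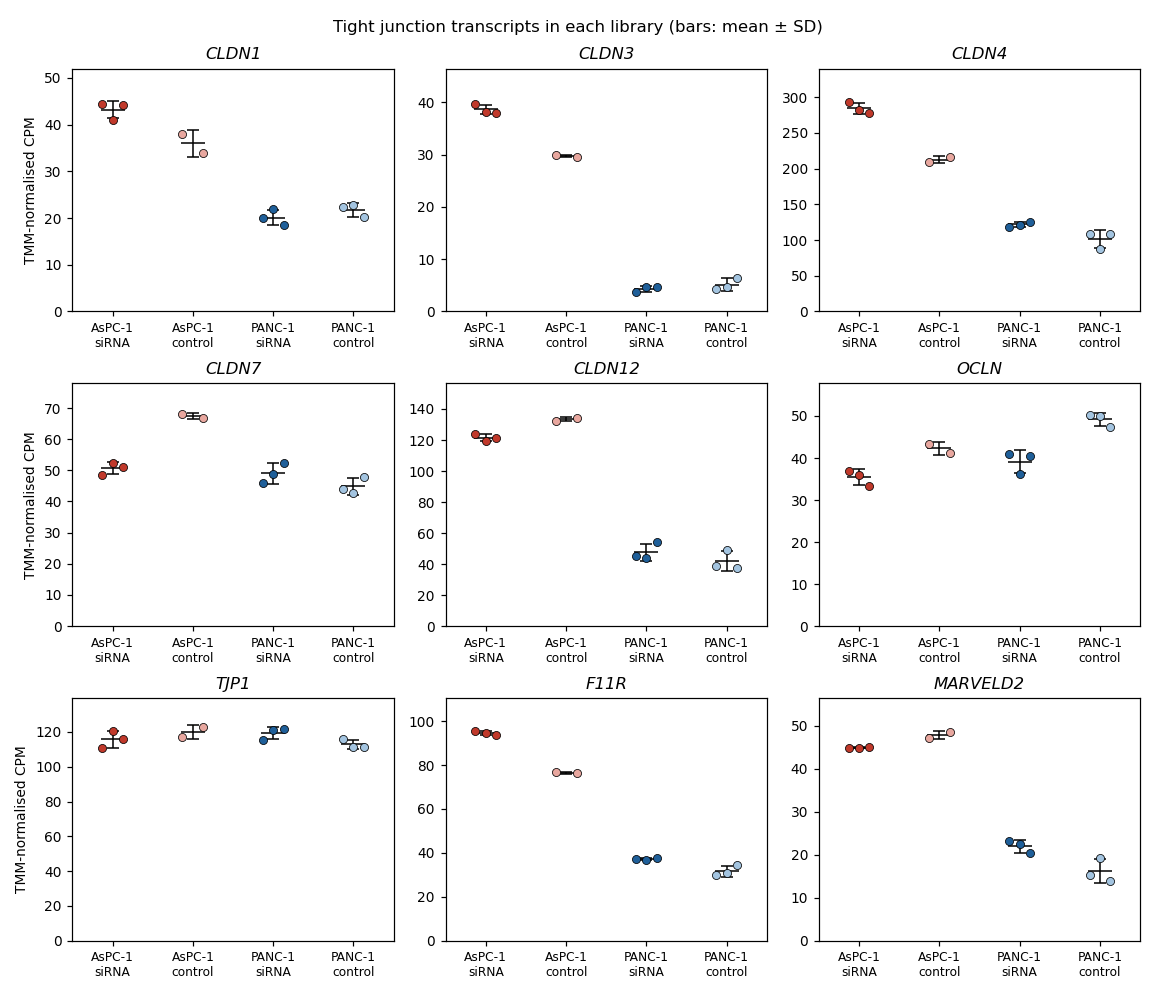
Each panel shows 1 gene, each point 1 library in TMM-normalised CPM (y axis, linear, from 0), with bars for the mean and SD of AsPC-1 siRNA (n = 3), AsPC-1 control (n = 2), PANC-1 siRNA (n = 3) and PANC-1 control (n = 3). CLDN4 stands at 278 to 293 CPM in AsPC-1 siRNA libraries, above the 209 and 216 CPM of the AsPC-1 controls, while CLDN7 stands at 48.6 to 52.3 CPM, below 66.8 and 68.1 CPM.

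In PANC-1, CLDN4 and MARVELD2 rose with MYEOV siRNA and OCLN fell, by amounts between 0.27 and 0.45 on the log2 scale, and the other 6 genes were not called. These 3 calls of 9 (2 higher, 1 lower) stand beside 9.08% of 14929 genes tested, 4.16% higher and 4.92% lower. The median absolute log2 fold change was 0.23 over the 9 genes and 0.12 over all genes tested. Groups did not overlap for 4 of the 9 genes, CLDN4, F11R, MARVELD2 and OCLN, beside 28.4% of genes tested.

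MARVELD2 had 23.3, 22.4 and 20.3 CPM in PANC-1 siRNA libraries, against 15.4, 19.4 and 14.0 CPM in PANC-1 controls. Its log2 fold change of 0.45 (SE 0.11; edgeR's adjusted p = 0.0248) was the largest of the 9 genes in either line. The highest control was the library that stood apart, PANC-1 control replicate 2, and without it the log2 fold change was 0.59 (edgeR's adjusted p = 9.40e-04). The call was lost when any of 4 other libraries was left out: control replicate 1 (edgeR's adjusted p = 0.0873), control replicate 3 (0.104), siRNA replicate 1 (0.125) and siRNA replicate 2 (0.0617).

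CLDN4 had 119, 122 and 126 CPM in PANC-1 siRNA libraries, against 108, 87.0 and 109 CPM in PANC-1 controls. The lowest control was again replicate 2. The log2 fold change was 0.27 (SE 0.08; edgeR's adjusted p = 0.0460), and without that library it was 0.17 (edgeR's adjusted p = 0.0483). Leaving out siRNA replicate 1, 2 or 3 took the call away (edgeR's adjusted p = 0.120, 0.0906 and 0.138). OCLN had 41.0, 36.1 and 40.4 CPM with siRNA, against 50.2, 50.0 and 47.4 CPM in controls, so that all siRNA libraries were lower (log2 fold change -0.33, SE 0.07; edgeR's adjusted p = 0.00968). Its call was lost without siRNA replicate 2, the lowest library (edgeR's adjusted p = 0.0514), and stayed without control replicate 2 (adjusted p = 0.00830).

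F11R had 37.2, 36.8 and 37.5 CPM in PANC-1 siRNA libraries, against 29.8, 30.6 and 34.6 CPM in PANC-1 controls. Every siRNA library was higher, but the difference did not pass the test (log2 fold change 0.23, SE 0.07; edgeR's adjusted p = 0.0739) unless control replicate 3, the highest control, was left out (edgeR's adjusted p = 0.0461) or all groups were fitted together (adjusted p = 0.0207). CLDN12 had 45.0, 43.6 and 54.0 CPM with siRNA, against 39.1, 49.3 and 37.7 CPM in controls. The groups overlapped because of control replicate 2, and CLDN12 was called only without it (log2 fold change 0.31 against 0.18 with it; edgeR's adjusted p = 0.0263 and 0.326). CLDN7 had 45.9, 48.8 and 52.4 CPM with siRNA, against 44.1, 42.7 and 47.9 CPM in controls (log2 fold change 0.12, SE 0.07; edgeR's adjusted p = 0.324).

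CLDN3 was the scarcest claudin member here, at 3.74, 4.67 and 4.72 CPM in PANC-1 siRNA libraries, against 4.23, 4.62 and 6.50 CPM in PANC-1 controls. Its SE of 0.18 on the log2 scale was the widest of the 9 genes, beside a log2 fold change of -0.24 (edgeR's adjusted p = 0.483). CLDN1 had 20.0, 21.9 and 18.5 CPM with siRNA, against 22.4, 22.7 and 20.1 CPM in controls (log2 fold change -0.11, SE 0.09; edgeR's adjusted p = 0.510). TJP1 had 115, 121 and 122 CPM with siRNA, against 116, 111 and 111 CPM in controls (log2 fold change 0.08, SE 0.05; edgeR's adjusted p = 0.385). The siRNA and control libraries of these 3 genes overlapped. Epithelial markers moved with siRNA in this line as well: KRT8 and KRT18 fell (log2 fold changes -0.41 and -0.33; edgeR's adjusted p = 8.88e-05 and 7.56e-04) and CDH1 rose (0.45; adjusted p = 0.0324), although DESeq2 called 2 epithelial markers lower and 0 higher, and their part in the changes of the junction genes was not tested.

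The response to siRNA differed between the lines for CLDN7 and MARVELD2. For CLDN7 the AsPC-1 response minus the PANC-1 response was -0.54 on the log2 scale (SE 0.10; interaction test over 16680 genes in edgeR, adjusted p = 0.00212), and this call held when any library was left out, with adjusted p up to 0.0232. For MARVELD2 the difference was -0.54 (SE 0.13; edgeR's adjusted p = 0.0199), and it passed or missed the threshold depending on the libraries: it was lost without AsPC-1 control replicate 1 (edgeR's adjusted p = 0.0767) or 2 (0.0961), PANC-1 control replicate 3 (0.0596) or PANC-1 siRNA replicate 1 (0.0720). Without PANC-1 control replicate 2 it was -0.71 (edgeR's adjusted p = 1.72e-04). These 2 calls of 9 stand beside 4.36% of all genes tested. The knockdown was itself unequal, since MYEOV had a difference of -0.59 (SE 0.10; edgeR's adjusted p = 0.00153). KRT8 and KRT18 differed too (0.42 and 0.52; edgeR's adjusted p = 1.25e-04 and 1.39e-05). The part of either in the differences of the junction genes was not tested.

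Differences for the other 7 genes did not pass the test. CLDN3 had the widest, 0.62 (SE 0.19; edgeR's adjusted p = 0.0636), followed by CLDN1 at 0.37 (SE 0.12; adjusted p = 0.0846) and CLDN12 at -0.31 (SE 0.12; adjusted p = 0.164). Without PANC-1 control replicate 2, 5 genes were called, with CLDN3 (edgeR's adjusted p = 0.0326), CLDN12 (0.00163) and CLDN4 (0.0265) added, and without PANC-1 control replicate 1 CLDN3 was added (0.0250). The differences were 0.16 (SE 0.09) for CLDN4, 0.08 (SE 0.09) for F11R, 0.07 (SE 0.10) for OCLN and -0.13 (SE 0.07) for TJP1, with edgeR's adjusted p between 0.391 and 0.816.

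**Figure D2:**
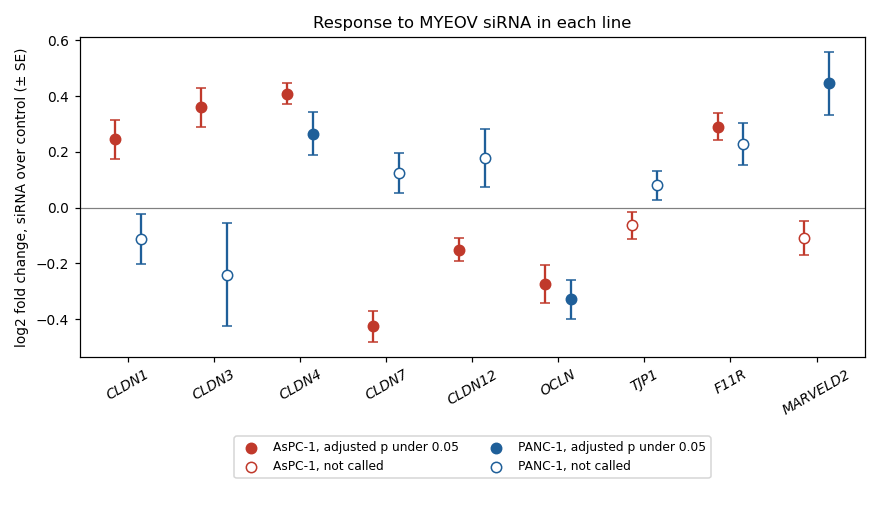
Points give the log2 fold change of siRNA over control for each gene (y axis) with its standard error, AsPC-1 in red and PANC-1 in blue, filled where edgeR's adjusted p was under 0.05. CLDN7 lies at -0.43 in AsPC-1 and 0.12 in PANC-1, MARVELD2 at -0.11 and 0.45, while CLDN4 lies above 0 and OCLN below 0 in both lines.

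The control libraries of the lines differed in most of these genes. AsPC-1 controls had more of 7 genes than PANC-1 controls, less OCLN, and a level of TJP1 that did not differ past the test. These 8 calls of 9 stand beside 76.4% of the 16182 genes tested, 36.1% higher and 40.3% lower in AsPC-1, so the number of calls is near the background. All 9 genes had groups without overlap, beside 83.6% of genes tested.

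CLDN3 showed the widest gap, at 29.8 ± 0.21 CPM in AsPC-1 controls and 5.12 ± 1.2 CPM in PANC-1 controls (SD, n = 2 and 3), a log2 fold change of 2.56 (SE 0.14; edgeR's adjusted p = 2.56e-10). CLDN12 averaged 133.5 ± 1.4 CPM in AsPC-1 controls and 42.0 ± 6.3 CPM in PANC-1 controls (log2 fold change 1.69, SE 0.09), and MARVELD2 averaged 47.9 ± 0.84 CPM in AsPC-1 controls and 16.2 ± 2.8 CPM in PANC-1 controls (1.59, SE 0.11). F11R averaged 76.5 ± 0.47 and 31.7 ± 2.5 CPM in AsPC-1 and PANC-1 controls (1.29, SE 0.08), and CLDN4 212 ± 4.8 and 101 ± 13 CPM (1.09, SE 0.08). Smaller differences were seen for CLDN1, at 36.0 ± 2.8 CPM in AsPC-1 controls and 21.7 ± 1.4 CPM in PANC-1 controls (0.75, SE 0.10), and CLDN7, at 67.4 ± 0.89 and 44.9 ± 2.7 CPM (0.61, SE 0.08). For these 6 genes edgeR's adjusted p lay between 2.22e-10 and 3.65e-06.

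OCLN averaged 42.3 ± 1.6 CPM in AsPC-1 controls and 49.2 ± 1.5 CPM in PANC-1 controls, the only member that was lower in AsPC-1 (log2 fold change -0.19, SE 0.08; edgeR's adjusted p = 0.0364). That call was lost with RLE scaling (edgeR's adjusted p = 0.0516), with DESeq2 (adjusted p = 0.120), and in edgeR without AsPC-1 control replicate 1 (0.0945), AsPC-1 control replicate 2 (0.252) or PANC-1 control replicate 1 (0.0588). TJP1 averaged 120.0 ± 4.0 CPM in AsPC-1 controls and 113 ± 2.6 CPM in PANC-1 controls (0.11, SE 0.06; edgeR's adjusted p = 0.120). OCLN and its chromosome 5 neighbour MARVELD2 thus had log2 fold changes of opposite sign between the lines. Epithelial markers differed in the same comparison, with 5 of 6 higher in AsPC-1 controls by edgeR, and their part in it was not tested.

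**Figure D3:**
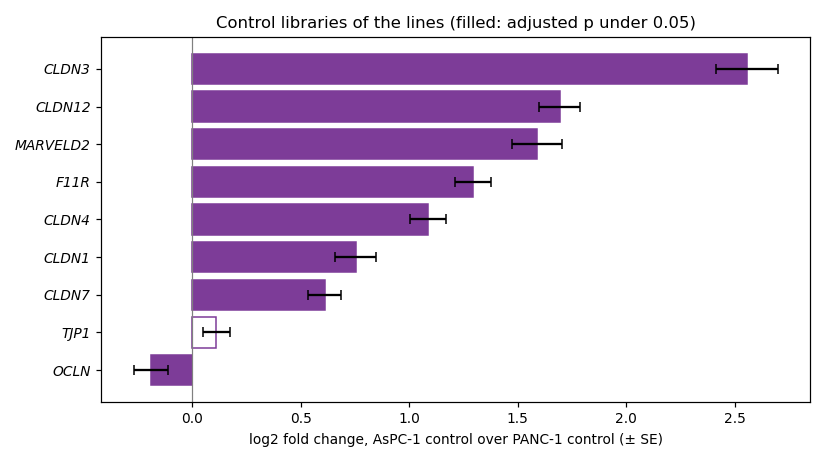
Bars give the log2 fold change of AsPC-1 controls over PANC-1 controls for each gene (x axis) with its standard error, filled where edgeR's adjusted p was under 0.05. CLDN3 reaches 2.56 at the top and OCLN, at -0.19, is the only bar left of 0.

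Levels were compared between genes per kb of annotated exon. CLDN4 was highest in every group, at 60.5 ± 1.7 CPM per kb in AsPC-1 siRNA libraries, 45.1 ± 1.0 in AsPC-1 controls, 26.0 ± 0.75 in PANC-1 siRNA libraries and 21.6 ± 2.7 in PANC-1 controls. In AsPC-1 siRNA libraries it was followed by CLDN3, CLDN7, F11R, CLDN12, CLDN1, TJP1, MARVELD2 and OCLN, and in AsPC-1 controls by CLDN7, CLDN3, CLDN12, F11R, TJP1, CLDN1, MARVELD2 and OCLN. No neighbours in these orders overlapped between libraries, so CLDN3 at 30.3 ± 0.72 CPM per kb stood above CLDN7 at 20.4 ± 0.75 with siRNA, while CLDN3 at 23.4 ± 0.16 stood below CLDN7 at 27.1 ± 0.36 in controls.

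In PANC-1 siRNA libraries the order after CLDN4 was CLDN7, TJP1, F11R, CLDN12, OCLN, CLDN1, MARVELD2 and CLDN3, where F11R and CLDN12, and OCLN and CLDN1, overlapped. In PANC-1 controls it was CLDN7, TJP1, OCLN, F11R, CLDN12, CLDN1, CLDN3 and MARVELD2, where CLDN4 and CLDN7, F11R and CLDN12, CLDN12 and CLDN1, and CLDN3 and MARVELD2 overlapped. The order depends on the length used. With the longest APPRIS principal transcript, a choice made after seeing the data, CLDN7 stood above CLDN4 in PANC-1, at 31.8 and 29.3 CPM per kb with siRNA and 29.1 and 24.4 CPM per kb in controls. CLDN12 then stood above CLDN3 in AsPC-1, at 34.1 and 30.3 CPM per kb with siRNA and at 37.4 and 23.4 CPM per kb in controls. With that length CLDN7 was also above CLDN3 in both AsPC-1 groups, at 32.9 and 30.3 CPM per kb with siRNA and 43.7 and 23.4 CPM per kb in controls, so the exchange of places between these 2 genes was not seen.

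Over all 24 claudin genes in the lists, the summed level was 155.6 ± 2.4 CPM per kb in AsPC-1 siRNA libraries and 136.7 ± 0.37 in AsPC-1 controls, and 69.0 ± 2.8 CPM per kb in PANC-1 siRNA libraries and 63.6 ± 3.6 in PANC-1 controls. The libraries did not overlap in AsPC-1, where siRNA libraries ran from 154 to 158 and controls from 136 to 137, and they overlapped in PANC-1, where siRNA libraries ran from 66.0 to 71.5 and controls from 59.9 to 67.0. The 5 claudin members made up between 87.4% and 91.7% of this sum in every library. CLDN4 took a mean of 38.9% in AsPC-1 siRNA libraries and 33.0% in AsPC-1 controls, and CLDN7 took 13.1% and 19.8% in the same groups. In PANC-1 CLDN4 took 37.6% with siRNA and 33.8% in controls, and CLDN7 28.5% and 28.3%. CLDN3 took 19.5% and 17.1% in AsPC-1 siRNA and control libraries, but 4.96% and 6.29% in PANC-1.

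**Figure D4:**
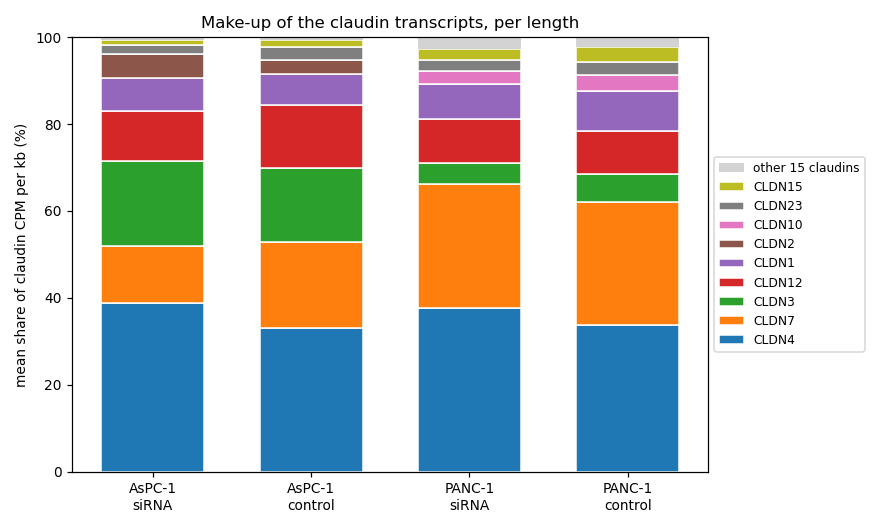
Stacked bars give the mean share (%) of each claudin in the summed claudin CPM per kb of a group, for AsPC-1 siRNA, AsPC-1 control, PANC-1 siRNA and PANC-1 control. CLDN7 narrows to 13.1% in AsPC-1 siRNA libraries, against 19.8% in AsPC-1 controls, while CLDN3 is a large block in AsPC-1 and a small one in PANC-1.

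Of the claudins outside the 9 genes, CLDN2, which forms a channel for small cations and water, was present in AsPC-1 and nearly absent in PANC-1. It had 29.5, 28.2 and 30.4 CPM in AsPC-1 siRNA libraries, against 15.8 and 14.7 CPM in AsPC-1 controls, and rose (log2 fold change 0.92, SE 0.09; edgeR's adjusted p = 8.88e-09). In controls it had 375 counts over the AsPC-1 libraries and 3 over the PANC-1 libraries, a ratio of CPM of 229 (95% counting interval 77.7 to 1115). CLDN10 was the reverse, with no count in AsPC-1 and 352 counts in PANC-1 controls, at least 64.1-fold lower in AsPC-1 when 3 counts over the group are set as the floor. Its exons overlap DZIP1 on the opposite strand, which had up to 606 counts, and whether the counts respect strand is unknown here.

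The other tight junction genes were held in 4 lists with 74 genes: other claudins, other membrane proteins, scaffolds and polarity complexes, and signalling and trafficking partners. In AsPC-1, 48 were tested, 14 were higher and 9 lower with siRNA, with a median log2 fold change of 0.05, beside -0.00 over all genes. In PANC-1, 50 were tested, 3 were higher and 3 lower, with a median of 0.02, beside -0.00 over all genes. Shares of called genes in AsPC-1 and PANC-1 are to be read against the 32.9% and 9.08% given above. Scaffolds and polarity genes were 20 of the 48 genes tested in AsPC-1 and 25 of the 50 in PANC-1. They held 7 of the rises and 4 of the falls in AsPC-1, and 2 and 2 in PANC-1.

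PRKCI, the atypical protein kinase C of the PAR polarity complex, fell in each line. It had 37.1, 39.1 and 37.8 CPM in AsPC-1 siRNA libraries, against 73.6 and 69.0 CPM in AsPC-1 controls (log2 fold change -0.93, SE 0.06; edgeR's adjusted p = 5.18e-12). In PANC-1 it had 43.7, 40.0 and 51.9 CPM with siRNA, against 63.9, 93.8 and 75.2 CPM in controls (log2 fold change -0.78, SE 0.12; edgeR's adjusted p = 0.00125). Its partner in that complex, PARD6B, had 38.6, 38.0 and 37.9 CPM in AsPC-1 siRNA libraries, against 21.2 and 21.8 CPM in AsPC-1 controls, and rose (log2 fold change 0.81, SE 0.08; edgeR's adjusted p = 5.22e-09). In PANC-1 PARD6B overlapped between groups, with 17.3, 13.7 and 19.6 CPM with siRNA and 15.7, 19.9 and 16.3 CPM in controls (log2 fold change -0.04, SE 0.13; edgeR's adjusted p = 0.903). The difference between lines was 0.87 (SE 0.16, edgeR interaction test, adjusted p = 0.00225). This was the only call among 57 of these genes tested for it, beside 4.36% of all genes tested.

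ARHGAP17, a GTPase-activating protein for CDC42 at tight junctions, fell in AsPC-1 (63.5 ± 3.0 CPM with siRNA and 87.9 ± 1.5 CPM in controls; log2 fold change -0.48; edgeR's adjusted p = 7.81e-08) and in PANC-1 (64.9 ± 4.0 and 81.3 ± 3.3 CPM; log2 fold change -0.32; adjusted p = 0.00645). Its binding partner AMOT fell in PANC-1, with 7.90, 8.12 and 8.14 CPM in siRNA libraries, against 11.5, 13.2 and 12.4 CPM in controls (log2 fold change -0.62; edgeR's adjusted p = 0.00252), and had at most 1 count in each AsPC-1 library. ILDR2, an angulin of tricellular contacts, rose in AsPC-1 (log2 fold change 1.39, SE 0.30; edgeR's adjusted p = 7.87e-04) at a low level, 3.15 ± 0.66 CPM with siRNA and 1.19 ± 0.19 CPM in controls. WNK4, a kinase that phosphorylates claudins, fell in AsPC-1 (log2 fold change -0.44; edgeR's adjusted p = 3.36e-04), and overlaps COA3 on the opposite strand.

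Other rises and falls in these lists were less stable. CLDN23 fell in AsPC-1 (log2 fold change -0.42; edgeR's adjusted p = 0.0252) but not with DESeq2 (adjusted p = 0.151), in 1 edgeR fit over all groups (0.0917), or without control replicate 2 (0.218) or siRNA replicate 1 (0.0698). In PANC-1, YBX3, a Y-box factor that binds TJP1, rose with siRNA (log2 fold change 0.33; edgeR's adjusted p = 0.0188), and the call was lost without control replicate 1 (adjusted p = 0.0757) or siRNA replicate 1 (0.124). PATJ, a Crumbs complex scaffold (0.26; edgeR's adjusted p = 0.0461), lost its call when any library but control replicate 3 was left out (adjusted p 0.0537 to 0.193). AFDN, which encodes afadin (log2 fold change 0.18, edgeR's adjusted p = 0.0329), lost it when any library but control replicate 2 was left out (adjusted p 0.0740 to 0.160). With the replicate number as a block, YBX3 (edgeR's adjusted p = 0.0816), PATJ (0.112) and AFDN (0.0976) were not called in PANC-1. PATJ was also not called with no low-count filter (edgeR's adjusted p = 0.0579) or with DESeq2 (adjusted p = 0.0724).

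**Figure D5:**
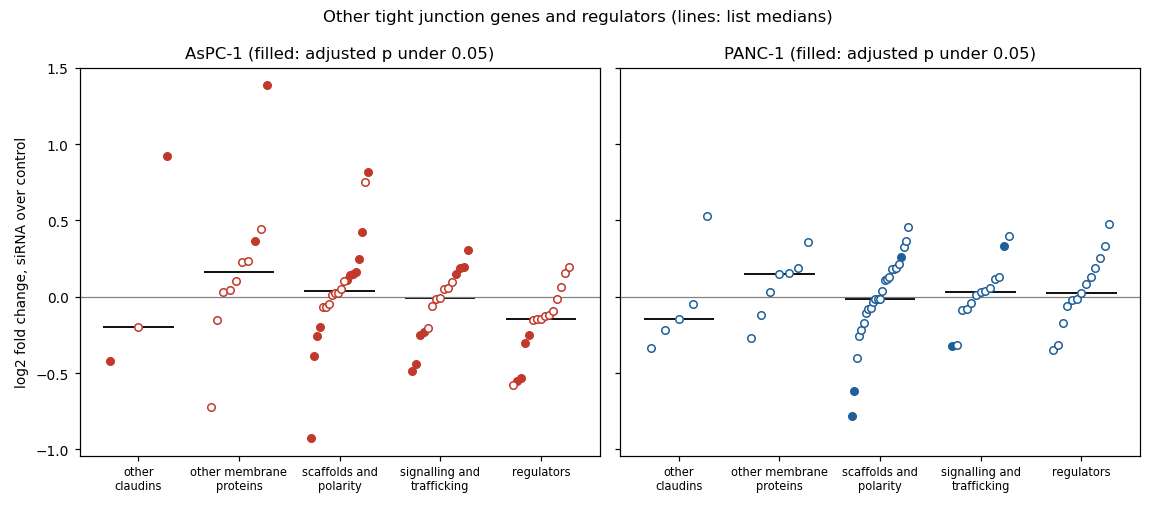
Each point is the log2 fold change of siRNA over control (y axis) for a tested gene of a list of other claudins, membrane proteins, scaffolds, signalling partners or regulators, AsPC-1 on the left and PANC-1 on the right, filled where edgeR's adjusted p was under 0.05, with a line at each list's median. ILDR2 (1.39) and CLDN2 (0.92) lie highest in AsPC-1 among filled points, and PRKCI lies lowest in both panels among filled points (-0.93 and -0.78).

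Between controls, 34 of 57 tested genes of the 4 lists were higher in AsPC-1 and 17 lower, to be read against the 36.1% higher and 40.3% lower of all genes tested, with a median log2 fold change of 0.34, beside -0.06 over all genes. ST14 (matriptase, a protease that cleaves EPCAM) was 632-fold higher in AsPC-1 controls than in PANC-1 controls, EPCAM 167-fold and the polarity protein CRB3 103-fold, the last with 338 and 6 counts over the groups and an overlap with DENND1C on the opposite strand. In the other direction, the multi-PDZ scaffold MPDZ and the membrane protein BVES had no count in AsPC-1 controls and were at least 237-fold and 204-fold lower there than in PANC-1 controls, with 3 counts over the group as the floor. AMOT was lower in AsPC-1 controls, with 2 counts against 553, a ratio of 151 in favour of PANC-1 (95% counting interval 41.6 to 1250). These intervals and floors cover counting error only.

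Among 22 transcription and splicing regulators of junction genes, 15 were tested in AsPC-1, where edgeR called 0 higher and 4 lower with siRNA (median log2 fold change -0.14), as did DESeq2, and at an unadjusted p under 0.05 there were 0 higher and 7 lower. Over all 14304 genes tested there, 32.9% were called and 5925 had an unadjusted p under 0.05. The called genes were HNF4A (-0.55; edgeR's adjusted p = 1.08e-10), the splicing regulator ESRP1 (-0.53; adjusted p = 7.10e-05), TFAP2A (-0.30; adjusted p = 3.72e-05) and ELF3 (-0.25; adjusted p = 3.83e-06). In PANC-1, 13 were tested, of which edgeR and DESeq2 called 0, and 1 was higher at an unadjusted p under 0.05. Between controls 12 of 19 were higher and 6 lower in AsPC-1, where 76.4% of all genes tested were called. HNF4A had 4414 counts over the AsPC-1 controls and 3 over the PANC-1 controls, a ratio of 2694 (95% counting interval 921 to 13071). TFAP2C had no count in AsPC-1 controls and was at least 191-fold lower there than in PANC-1 controls. SNAI1, a repressor that binds the E-box letters searched above, was at 0.689 ± 0.098 CPM in AsPC-1 controls and 15.6 ± 0.78 CPM in PANC-1 controls. Its relative SNAI2, named after its values were seen, was the other way round, at 41.8 ± 0.0098 CPM in AsPC-1 controls and 0.156 ± 0.036 CPM in PANC-1 controls.

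Among the genes whose pattern over the 11 libraries was most like that of CLDN4 were HSPB1 and MAST3, out of 9720 genes whose mean log2 CPM was 3 or more. Likeness was the root mean square difference of log2 CPM, each gene centred on its own mean, and was 0.0591 for HSPB1 and 0.0780 for MAST3, beside a median of 0.666 over all genes searched. HSPB1, a small heat shock protein, averaged 611 ± 18 CPM in AsPC-1 siRNA libraries and 481 ± 8.2 CPM in AsPC-1 controls, and 258 ± 3.7 CPM in PANC-1 siRNA libraries and 205 ± 24 CPM in PANC-1 controls. For MARVELD2 they were FAM133B, DRAM2 and NCOA3, at 0.129, 0.135 and 0.137, beside a median of 0.707. DRAM2 and NCOA3 each overlap a gene on the opposite strand (CEPT1 and SULF2). The 11 points come from 4 groups of libraries and share the difference between lines, so no p is given.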

How the data were processed

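The members and gene lists used here were chosen with earlier results of these data known. Poly(A) RNA of 11 libraries was sequenced as paired reads of 150 bases, per the labels' protocols. Per the submitters' processing notes, HISAT2 and HTSeq were used and hg19 was the build, with no versions or roles given. The authors deposited raw whole-number read counts per gene, 1 table per library, with 0 rows that name no gene. All 58735 identifiers occur in GENCODE 29 (GRCh38), which gave names, lengths and positions. The sources used here do not say whether the counts are strand-specific.

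Each comparison used its own libraries only, in edgeR 4.0.16 (R 4.3.3) with filterByExpr, TMM, glmQLFit and glmQLFTest (two-sided), Benjamini-Hochberg adjustment over all genes tested, threshold 0.05. The difference in response was an interaction contrast over all 11 libraries. The standard error is the absolute log2 fold change divided by the square root of F. CPM values were computed here with TMM factors over all libraries, and levels per kb divide them by the union of annotated exons. The fits gave a biological coefficient of variation of 2.77% for AsPC-1 and of 6.08% for PANC-1. Promoter windows came from RefSeq (GRCh38.p14). Fits were tested on simulated counts.

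Named besides the 9 members were, by rule, the 4 largest called rises and falls of the other tight junction lists and the 2 largest of the regulators (mean log2 CPM of at least 1) in each comparison, and the 3 genes most like CLDN4 and like the member with the largest response. EPCAM, TFAP2A, ELF3, KRT8, KRT18, CDH1, SNAI2, GRHL2, ZEB1 and LUM beyond that rule were chosen after seeing their values. Some genes that the rule names are not reported here. The alternatives tried were scaling by RLE or upper quartile, no filter, a filter of 5 CPM, DESeq2 1.42.0, the replicate number as a block, 1 fit over all groups and leaving out each library; another length was added after seeing the data. Figures were drawn with matplotlib 3.10.9.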

Additional observations from a re-analysis of the deposited data

Results flagged for a closer look

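The response of 3 genes differed between the lines by the edgeR interaction test. CLDN7 had an AsPC-1 response minus PANC-1 response of -0.54 on the log2 scale (SE 0.10; edgeR adjusted p = 0.00212): every AsPC-1 siRNA library was below both AsPC-1 controls, while the PANC-1 groups overlapped. MARVELD2 had a difference of -0.54 (SE 0.13; edgeR adjusted p = 0.0199), with siRNA libraries below controls in AsPC-1 and above them in PANC-1. Its change in AsPC-1 was not called (log2 fold change -0.11; edgeR adjusted p = 0.191). The call for the difference passed or missed the threshold depending on the libraries kept, as described above. PARD6B, a polarity protein, had a difference of 0.87 (SE 0.16; edgeR adjusted p = 0.00225), with all AsPC-1 siRNA libraries above both AsPC-1 controls and overlapping groups in PANC-1.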

How the results depend on the processing

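Of 486 refits of single members, 453 kept direction and side of the threshold, 24 lost the call, 9 gained it and 0 reversed. For the other genes chosen by the rule 367 of 395 kept both and 28 lost the call. With the replicate number as a block, genes called fell to 628 in PANC-1, against 1356 without it, and to 241 for the difference between lines, against 727, where 1 member was called instead of 2. The block also took away the calls of CLDN4 in PANC-1 (edgeR adjusted p = 0.0834), of OCLN between controls (0.0590) and of MARVELD2 for the difference (0.0819). The replicate numbers are not stated to mark a shared batch, so they were not taken as pairs in the main fits. Deviations of same-numbered libraries correlated at -0.153 to -0.0205 in PANC-1 and at -0.0123 and 0.00551 in AsPC-1. The deviations of the 2 AsPC-1 controls mirror each other. With so few libraries these values cannot decide whether the numbers mark pairs. With no low-count filter, 4 members were called for the difference, with CLDN3 and CLDN12 added.

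Leaving out 1 library at a time gave 538 to 1712 genes and 0 to 4 members called in PANC-1, and 305 to 1056 genes and 1 to 5 members for the difference. The PANC-1 count was 538, 876 and 863 without siRNA replicates 1, 2 and 3. The difference gave 305 and 315 genes without AsPC-1 control replicates 1 and 2, and 475 without PANC-1 siRNA replicate 1. The cause of these changes was not tested. With 2 AsPC-1 controls, leaving 1 out assumes that the lone control varies like the siRNA libraries. CLDN3 in PANC-1 rested on 61 to 103 counts per library, which limits the precision of its change.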

Other observations

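GRHL2, a grainyhead factor known to activate claudin genes in other epithelia, was close to 0 in every group, at 0.0554 ± 0.048 CPM in AsPC-1 siRNA libraries, 0.126 ± 0.072 CPM in AsPC-1 controls, 0.0444 ± 0.039 CPM in PANC-1 siRNA libraries and 0.0916 ± 0.048 CPM in PANC-1 controls (SD, n = 3, 2, 3 and 3). By group mean, CLDN4 was the highest of the 9 genes per kb of annotated exon in the same libraries. In PANC-1 controls it overlapped CLDN7, and with the APPRIS length CLDN7 stood above it in both PANC-1 groups. A link between GRHL2 and claudin levels was not tested. ZEB1, an E-box repressor, was present in both lines, at 38.5 ± 3.1 CPM in AsPC-1 siRNA libraries and 41.3 ± 0.51 CPM in AsPC-1 controls, and at 53.2 ± 1.0 CPM in PANC-1 siRNA libraries and 54.0 ± 2.5 CPM in PANC-1 controls. LUM, on the list of fibroblast markers, was the only gene of that list above 1 CPM in AsPC-1, at 105 ± 1.7 CPM with siRNA and 301 ± 9.9 CPM in controls.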
